A study of Mus musculus with 12 samples.

Results

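The comparison described here sets the 2 arrays titled AST against the 2 arrays titled NSC, out of 12 arrays in the series, without regard to any measured value. For each of 18194 mouse genes it uses the probe set (a group of short probes that together read a transcript) with the highest mean over the 12 arrays, among probe sets that carry a single gene symbol. Of these genes, 12788 were tested, namely those whose mean lay above 5.18, the median of all log2 values in the table, in at least 1 of the 6 groups. A log2 difference of 1 is a fold of 2, and every difference below is AST minus NSC unless another pair is named.

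AST are cells labelled astrocytes, obtained by moving stem cell cultures into DMEM with 10% fetal calf serum and keeping them there for 3 weeks. NSC are cells labelled neural stem cells, taken from the telencephalon of BL6 embryos at day 14.5 and grown as floating spheres without serum, in a medium with insulin, transferrin, selenite, progesterone, putrescine, N-acetylcysteine, 5 µM forskolin, 10 ng/ml PDGF and bFGF. ASTL61 and NSCL61 are lines made from these 2 cell types by electroporation of HRasL61 with EGFP and of a neomycin resistance plasmid, selection in 0.5 mg/ml neomycin and sorting for GFP. OPC, a further culture of the same origin, grew in bFGF, PDGFAA and 0.25% serum and were purified by immunopanning, and OPCL61 is the line made from them. Every group carries the p53-/- genotype, so no comparison here has cells with p53. Each group has 2 arrays, and the labels do not say whether these came from separate cultures, so p-values measure the spread between these arrays, which may be technical. Serum, the culture medium and the labelled cell type change together between AST and NSC and cannot be told apart. In RNA from whole cultures, fewer cells of a type and less RNA per cell cannot be told apart either.

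Neural stem cells of the embryonic telencephalon divide near the ventricle and are held in the stem cell state by transcription factors of the SOX, POU, LIM-homeobox and PAX families, with nestin as their typical intermediate filament. Serum is a classic means of turning such cells into astrocytes, which take up glutamate, are joined by gap junctions and use GFAP as a filament protein. Fibroblasts, pericytes and the cells of the meninges arise outside the neural epithelium and secrete fibrillar collagens and small proteoglycans.

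The markers of the labelled cell types did not follow the labels on these arrays. Gfap had 5.41 and 5.73 on the AST arrays, against 4.98 and 5.15 on the NSC arrays (log2 difference 0.51 ± 0.42, SE; limma adjusted p = 0.408). Aqp4, the water channel of astrocyte endfeet, had 5.07 and 4.80 in AST, against 4.76 and 4.90 in NSC, and S100b had 5.14 and 5.24 in AST, against 5.34 and 5.42 in NSC. The folate enzyme Aldh1l1 and the glutamate transporter Slc1a2 lay below the filter in every group. Other astrocyte genes had signal without passing the test. The gap junction gene Gja1 had 11.80 and 11.67 in AST, against 12.10 and 12.17 in NSC. A second glutamate transporter, Slc1a3, had 6.82 and 6.34 in AST, against 6.44 and 8.05 in NSC. Among 20 astrocyte genes, 17 were tested, 0 were higher in AST and 2 were lower. These were Sox9, a transcription factor of glial fate, and the lipid carrier Apoe. Sox9 had 6.65 and 6.58 in AST, against 7.88 and 7.83 in NSC. Apoe had 4.55 and 4.80 in AST, against 9.24 and 6.48 in NSC, and its adjusted p of 0.0187 became 0.0754 to 0.0969 when AST 1, AST 2 or NSC 1 was left out. The mean log2 signal of the whole astrocyte list was 5.79 and 5.84 in AST, against 6.20 and 6.06 in NSC, and it was higher in OPC, at 8.63 and 8.47.

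On the NSC side, Sox1, a defining factor of the neural epithelium, had 4.03 and 4.05, against 4.43 and 4.48 in AST. It lay below the filter in every group, so its low signal does not set the NSC arrays apart. Nestin (Nes) was measured on all 4 arrays, at 8.76 and 8.64 in AST, against 8.36 and 8.15 in NSC (adjusted p = 0.0942). Genes of fibroblasts and pericytes were high on the NSC arrays: the mean log2 signal of that list of 18 genes was 7.46 and 7.13 in AST, against 9.86 and 9.56 in NSC, while it was 4.77 and 4.88 in OPC. Acta2, the smooth muscle actin of pericytes and myofibroblasts, had 13.61 and 13.33 in AST, against 13.64 and 13.68 in NSC. The groups are therefore called by their titles here. Pecam1, of endothelial cells, was at most 3.99 on the AST and NSC arrays, and Aif1, of microglia, was at most 3.80. Other markers of these types had signal: Flt1, of endothelial cells, had 6.50 and 6.69 in AST, against 9.17 and 7.78 in NSC, and Csf1r, of microglia, had 5.93 and 6.14 in AST, against 6.37 and 6.21 in NSC.

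**Figure D1:**
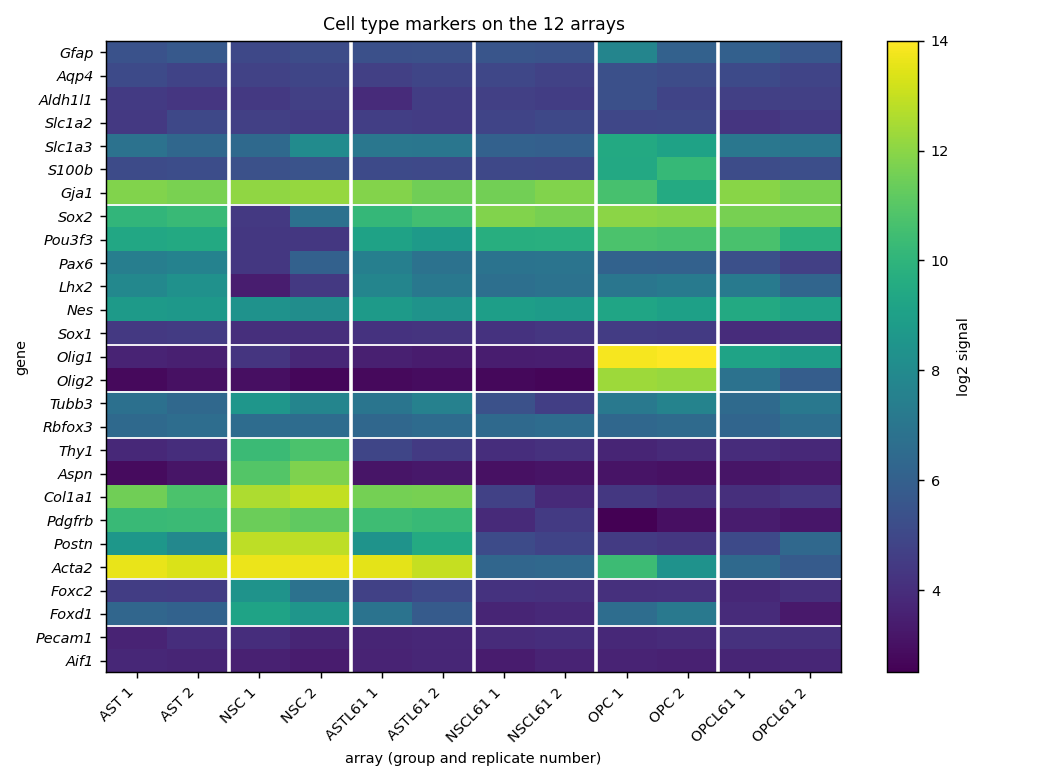
Log2 signal of 27 cell type markers (rows) on the 12 arrays (columns, 2 arrays a group), with a colour scale in log2 units. White lines separate the groups and, from the top, genes of astrocytes, neural stem cells, oligodendrocyte precursors, neurons, fibroblasts with pericytes and smooth muscle, meninges, and endothelial cells with microglia. Sox2, Pou3f3 and Lhx2 are higher in AST than in NSC, Thy1 and Aspn are higher in NSC than in AST, and Gfap, Aqp4 and Sox1 are low in both.

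Of the 12788 genes tested, 3896 (30.5%) differed between AST and NSC at an adjusted p under 0.05 in limma, 1975 (15.4%) of them higher in AST and 1921 (15%) lower. Every list count in this text is to be read beside these shares, and a count near them does not set a list apart. The large differences were mostly lower in AST. Past the threshold and at least 1 on the log2 scale were 446 higher and 881 lower genes, at least 3 were 27 higher and 135 lower, and at least 5 were 4 higher and 16 lower. The median difference over all tested genes was 0.02. Leaving out an array lowers the number of calls over all genes as well, to between 2117 without AST 2 and 3021 without NSC 1. For 485 of the called genes the lower group mean lay under 5.18, where signal may be background, and the size of such a difference is uncertain. Among 195 named genes past the threshold, 98 had further probe sets with a group mean above 5.18, and 5 of these 152 probe sets had the opposite sign. The sizes could differ widely, and each SE covers only the probe set used. A second probe set gave 1.18 for Pou3f3 (used: 5.06), -0.62 for Igfbp5 (used: -4.87) and -0.16 for Inhbb (used: -3.08). For Adamts5 and Fmod others fell by more, at -4.01 (used: -1.63) and -4.99 (used: -1.86).

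The largest rises in AST were led by Tnnt2, the cardiac form of troponin T. It had 10.26 and 9.97 on the AST arrays, against 5.39 and 3.92 on the NSC arrays (log2 difference 5.46 ± 0.52, SE; adjusted p = 0.000129). Plscr2, of the phospholipid scramblase family, had 9.41 and 9.37 in AST, against 3.69 and 4.48 in NSC (5.30 ± 0.33). The groups lie far apart for both, and the NSC signals sit near the level of background. Cyp7b1, which hydroxylates oxysterols, had 10.14 and 9.47 in AST, against 5.58 and 3.82 in NSC (5.11 ± 0.47). Ces1g, a carboxylesterase, had 8.44 and 8.49 in AST, against 3.32 and 3.69 in NSC (4.96 ± 0.56). Tnnt2 was the only riser among 8 tested genes of the striated muscle list, in which the skeletal actin Acta1 was lower by a difference of -0.71.

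Several membrane proteins were among the same 15 genes. Podxl, a sialomucin, had 8.67 and 8.81 in AST, against 4.37 and 4.68 in NSC (4.22 ± 0.17). Cd34, a sialomucin of the same family, had 11.47 and 11.81 in AST, against 5.78 and 9.48 in NSC (4.01 ± 0.92, adjusted p = 0.0105). Its NSC arrays differ by more than many genes differ between the groups, and without AST 2 its adjusted p was 0.0638. Perp, a protein of desmosomes, had 8.90 and 9.53 in AST, against 4.54 and 5.04 in NSC. Dynap, a membrane protein that binds dynactin, had 9.11 and 9.39 in AST, against 4.93 and 5.15 in NSC. All 4 were higher on both AST arrays than on either NSC array, as the choice of these 15 genes required. Arrays of AST and NSC lay apart, without overlap, for all 3896 genes past the threshold and for 8543 of the 12788 tested genes. The solute carriers that rose were the neutral amino acid transporter Slc6a15, with 8.43 and 9.31 in AST, against 3.75 and 6.24 in NSC, and the organic anion transporter Slco1a5, with 8.67 and 8.39 in AST, against 5.61 and 4.42 in NSC. Mgst1, a membrane-bound glutathione transferase, had 10.25 and 9.69 in AST, against 7.73 and 3.16 in NSC, and its adjusted p of 0.0131 became 0.074 without AST 1 and 0.0544 without AST 2.

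**Figure D2:**
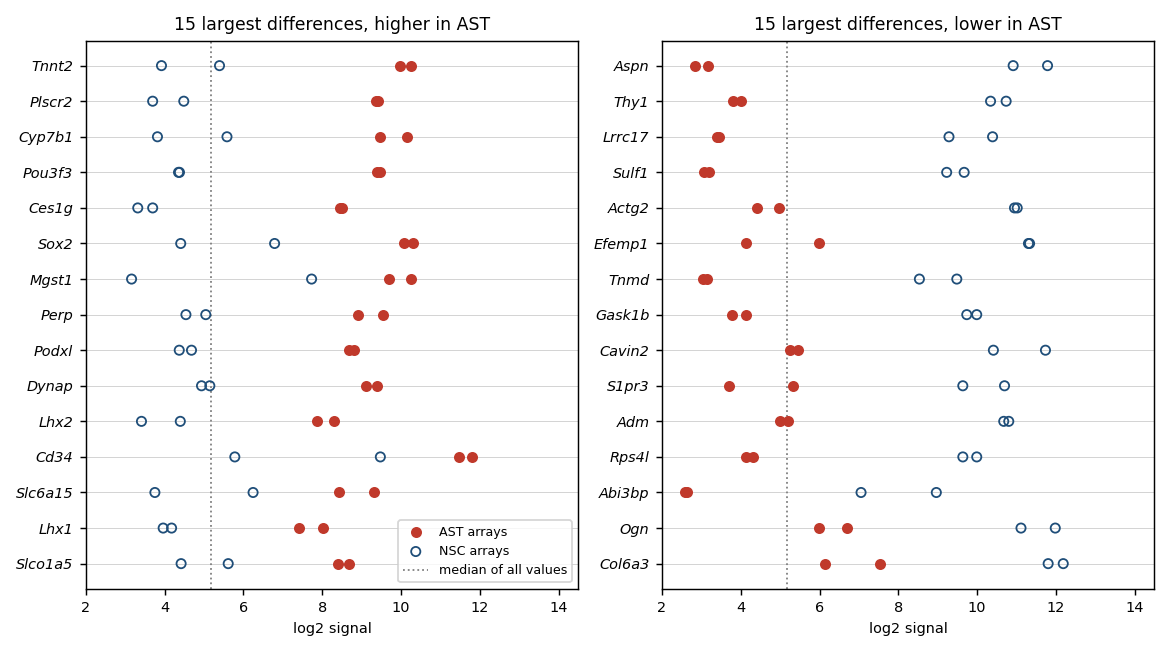
Log2 signal (horizontal axis) of the 15 genes with the largest rise (left) and the 15 with the largest fall (right) in AST; filled points are the 2 AST arrays and open points the 2 NSC arrays. The dotted line is the median of all values, 5.18. Genes were chosen among those whose AST points do not overlap the NSC points, and the NSC arrays lie furthest apart for Mgst1 and Cd34.

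Several transcription factors of neural progenitors, though not most members of their lists, were higher in AST than in NSC. Pou3f3, a POU-domain factor of cortical progenitors, had 9.38 and 9.47 in AST, against 4.35 and 4.38 in NSC (5.06 ± 0.23; adjusted p = 1.91e-06). Sox2, which maintains neural progenitors, had 10.07 and 10.31 in AST, against 4.41 and 6.79 in NSC (4.59 ± 0.57; adjusted p = 0.000504). Both genes were given as markers with the comparison, and list members were chosen with earlier results of these data known. Their differences are therefore no independent support for the choice. The AST arrays agree closely, while Sox2 differs by more than 2 log2 units between the NSC arrays. Lhx2, which specifies the cortex, had 7.87 and 8.30 in AST, against 3.41 and 4.40 in NSC (4.18 ± 0.37), and its relative Lhx1 had 7.41 and 8.02 in AST, against 4.17 and 3.96 in NSC (3.65 ± 0.27). Pax6, of cortical radial glia, had 7.41 and 7.60 in AST, against 4.34 and 6.09 in NSC (2.29 ± 0.47). These factors reach or pass 7 on each AST array and stay under 7 on each NSC array.

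Of 19 stem cell and radial glia genes, 16 were tested, 5 were higher in AST (Sox2, Pax6, Lhx2, Emx2 and Pou3f3) and 0 lower, with a median difference of 0.28. In the list of 27 telencephalic and regional factors, 16 were tested, 6 rose and 4 fell. The rises were Sp8, Otx1, Meis2, Emx2, Lhx2 and Pax6. Sp8, a zinc finger factor of the anterior telencephalon, had 5.94 and 5.95 in AST, against 3.33 and 3.17 in NSC (2.69 ± 0.13). Otx1, a cortical homeobox factor, had 7.50 and 7.73 in AST, against 5.32 and 5.59 in NSC (2.16 ± 0.20). The falls were Lhx6, Dlx2, Pax3 and Zic1. Dlx2, a factor of the ventral telencephalon, had 5.65 and 5.11 in AST, against 7.05 and 7.11 in NSC (-1.70 ± 0.20). Without AST 1, 4 regional factors rose.

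In the POU and SOX families 18 of 21 genes were tested, 5 rose and 1 fell, with a median of 0.16. Sox6, a SoxD factor of progenitors, had 7.31 and 7.24 in AST, against 3.77 and 3.98 in NSC (3.40 ± 0.22), and Pou6f1 had 7.46 and 7.53 in AST, against 6.21 and 6.23 in NSC (1.28 ± 0.17). For these 2 genes, named for their small p, the arrays of a group lie close together. Sox21 was the last riser and Sox9 the only fall. Of 11 tested Hox genes, which pattern the hindbrain and trunk, Hoxa5 alone passed, at 6.83 and 6.79 in AST, against 6.31 and 6.33 in NSC. In the neural adhesion list 16 genes were tested, 2 rose and 2 fell. Gpm6b, a proteolipid of neurons and glia, had 9.07 and 8.91 in AST, against 5.73 and 6.99 in NSC (2.63 ± 0.39). Flrt2, Flrt3 and L1cam passed with all arrays, but Flrt2 had an adjusted p of 0.128 without NSC 2, Flrt3 of 0.0633 without AST 1 and L1cam of 0.134 without NSC 2.

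Markers of the other neural types are given beside the 30.5% of all tested genes that passed. Of 12 oligodendrocyte precursor genes 0 rose and 3 fell, with a median of -0.01. Ptprz1, a receptor phosphatase, had 4.16 and 4.48 in AST, against 7.85 and 7.60 in NSC (-3.41 ± 0.31). Cspg4, the NG2 proteoglycan of precursors and pericytes alike, had 6.33 and 6.44 in AST, against 8.04 and 8.01 in NSC. The lineage factors Olig1 and Olig2 stayed under 4.3 on all 4 arrays, and were at 13.95 and 12.27 on average in OPC. Of 9 tested oligodendrocyte genes 2 rose (Ugt8a and Aspa) and 1 fell (Cnp), but neither rise passed without AST 2 (adjusted p = 0.105 and 0.158). Of 12 tested neuronal genes 1 rose and 1 fell. Map2, a microtubule protein of dendrites, had 8.12 and 8.06 in AST, against 5.07 and 5.91 in NSC. Tubb3, the neuronal tubulin, had 6.75 and 6.37 in AST, against 8.53 and 7.75 in NSC, and its adjusted p of 0.00966 became 0.0725 without AST 2 and 0.0616 without NSC 1.

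The largest fall in AST was that of Aspn, followed by that of Thy1. Aspn, which encodes the small proteoglycan asporin, had 2.83 and 3.16 in AST, against 10.91 and 11.79 in NSC (-8.35 ± 0.24; adjusted p = 8.71e-08). Thy1, a surface protein of fibroblasts, mature neurons and mouse T cells, had 3.81 and 4.01 in AST, against 10.34 and 10.74 in NSC (-6.63 ± 0.19). On the AST arrays both genes lay well under the median of all values, and on the NSC arrays both were among strong signals. Both were also given as markers with the comparison, so their differences are no independent support either. Lrrc17, a secreted leucine-rich protein, had 3.45 and 3.39 in AST, against 10.39 and 9.28 in NSC, and the tendon protein Tnmd had 3.04 and 3.15 in AST, against 9.48 and 8.53 in NSC. Postn, a matricellular protein of fibroblasts, had 8.60 and 7.87 in AST, against 12.86 on each NSC array (-4.63 ± 0.45). Postn was therefore still well above background in AST, unlike Aspn and Thy1.

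Among 18 fibroblast and pericyte genes, 15 were tested, 11 fell and 0 rose, with a median difference of -2.36. The meningeal list had 10 tested genes, of which 7 fell and 0 rose (median -2.07). Foxc2, a forkhead factor of meninges and other mesenchyme, had 4.59 and 4.55 in AST, against 8.40 and 6.85 in NSC (-3.06 ± 0.38). Foxd1 had 6.29 and 6.12 in AST, against 9.17 and 8.55 in NSC (-2.65 ± 0.36), and Crabp2, a retinoic acid carrier, had 6.50 and 5.00 in AST, against 9.30 and 9.52 in NSC (-3.66 ± 0.38). The mean signal of the meningeal list was 5.97 and 5.81 in AST, against 7.72 and 7.25 in NSC. Of 22 tested mesenchymal transcription factors, 12 fell and 2, Foxf1 and Foxf2, rose (median -0.82). Prrx2, a homeobox factor of limb and head mesenchyme, had 7.74 and 7.14 in AST, against 10.45 and 10.55 in NSC, and Prrx1 had 9.39 and 9.09 in AST, against 10.87 and 10.78 in NSC. Alx1, of craniofacial mesenchyme, had 5.83 and 6.42 in AST, against 8.45 and 8.84 in NSC, and the T-box factor Tbx15 had 7.92 and 7.80 in AST, against 9.34 and 9.74 in NSC. Prrx1, Prrx2 and Tbx15 were thus lower in AST yet above the median of all values on each AST array. How far a changed share of mesenchymal cells takes part in the results below was not tested.

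Fibrillar collagens, the rope-forming collagens of connective tissue, had 9 tested genes, of which 8 fell and 0 rose (median -1.99). Col1a1 had 11.51 and 10.74 in AST, against 12.61 and 12.93 in NSC (-1.64 ± 0.30). Col1a2 had 12.55 and 11.91 in AST, against 13.80 and 13.66 in NSC (-1.50 ± 0.20), and a weaker probe set of it had the opposite sign, at 0.38. Type I collagen thus remained among the strong signals of the AST arrays. Col3a1 had 9.47 and 7.86 in AST, against 13.24 and 12.76 in NSC (-4.34 ± 0.55), and Col5a2 had 11.11 and 10.77 in AST, against 13.37 and 13.63 in NSC (-2.56 ± 0.18). Col11a1, which nucleates thin fibrils, had 7.52 and 6.95 in AST, against 10.00 and 10.54 in NSC. The falls within this family ranged from that of Col5a1 at -1.23 to that of Col3a1, and Col27a1 did not pass.

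Of 16 tested network, beaded and other collagens, 10 fell and 0 rose (median -1.53). Col6a3, a chain of beaded type VI collagen, had 7.52 and 6.14 in AST, against 12.19 and 11.80 in NSC (-5.16 ± 0.38). Col8a2 had 3.18 and 3.63 in AST, against 6.83 and 6.30 in NSC, the basement membrane chain Col4a2 had 9.07 and 8.68 in AST, against 11.38 and 10.69 in NSC, and Col7a1, of anchoring fibrils, had 7.25 and 7.37 in AST, against 8.89 and 8.50 in NSC. The enzymes that fold and cross-link collagen mostly fell as well: of 16 tested genes 10 fell and 3 rose (median -0.91). Loxl1, a lysyl oxidase, had 9.11 and 9.05 in AST, against 11.27 and 11.05 in NSC (-2.08 ± 0.18). P4ha2, a prolyl hydroxylase, had 6.61 and 6.40 in AST, against 9.54 and 9.81 in NSC (-3.17 ± 0.28). The smaller falls of P3h1 (-1.39) and Pcolce (-1.24) left Pcolce, an enhancer of procollagen cleavage, at 11.96 and 11.98 in AST. The rises, of Loxl4, Pcolce2 and P3h2, were no longer called without AST 1, AST 2 or NSC 1.

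Small leucine-rich proteoglycans, which coat collagen fibrils, had 9 tested genes, of which 6 fell and 0 rose (median -2.36). Ogn had 6.69 and 5.97 in AST, against 11.11 and 11.98 in NSC (-5.22 ± 0.32), and Omd had 4.91 and 5.00 in AST, against 7.73 and 9.66 in NSC (-3.74 ± 0.47). Fmod had 5.12 and 4.77 in AST, against 7.19 and 6.42 in NSC (-1.86 ± 0.32). Dcn, which encodes decorin, had 7.63 and 5.64 in AST, against 9.44 and 8.54 in NSC, with an adjusted p of 0.0492 that rose to 0.315 without AST 2 and 0.205 without NSC 1. Bgn, Prelp and Podn did not pass.

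Among 21 tested elastic fibre and matricellular genes, 12 fell and 2 (Ltbp1 and Ltbp3) rose, with a median of -1.64. The rises were not called without AST 1, AST 2 or NSC 1. Efemp1, of the fibulin family, had 5.98 and 4.12 in AST, against 11.33 and 11.30 in NSC (-6.27 ± 0.44). Fbln1 had 6.82 and 6.25 in AST, against 10.10 and 9.66 in NSC (-3.35 ± 0.21). The microfibril proteins Mfap4 (-3.08 ± 0.26) and Mfap2 (-1.83 ± 0.16) fell too. For these 4 genes both AST arrays are below both NSC arrays, as holds for every gene that fell past the threshold.

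Matrix proteases and their inhibitors had 20 tested genes, 10 of which fell and 0 rose (median -1.06). Mmp2, a gelatinase, had 8.37 and 7.16 in AST, against 11.23 and 11.44 in NSC (-3.57 ± 0.38), and Reck, a membrane inhibitor of such enzymes, had 4.45 and 4.29 in AST, against 7.53 and 6.84 in NSC (-2.81 ± 0.23). Enzyme and inhibitor were therefore lower together. The aggrecanase Adamts5 (-1.63 ± 0.17) and Adamts1 (-2.18 ± 0.31) also fell. Of 19 tested heparan sulphate proteoglycans and their editors, 6 fell and 1, the sulfotransferase Ndst3, rose (median -0.38), a rise that was not called with any 1 of the 4 arrays left out. Sulf1, a sulfatase that trims heparan sulphate outside the cell, had 3.19 and 3.06 in AST, against 9.67 and 9.23 in NSC (-6.33 ± 0.17). Its relative Sulf2 had 9.17 and 8.53 in AST, against 10.43 and 11.40 in NSC (-2.06 ± 0.33). Sulf2 thus stayed high in AST where Sulf1 was near background. The glypicans Gpc4 (-2.42 ± 0.39) and Gpc6 (-1.18 ± 0.20) fell.

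Laminins and integrins, the ligands and receptors of basement membrane adhesion, had 21 tested genes, of which 10 fell and 3 rose (median -0.31). Lama2 had 5.55 and 5.82 in AST, against 9.09 and 8.59 in NSC (-3.15 ± 0.17), and Lama4 had 4.93 and 5.26 in AST, against 9.20 and 8.35 in NSC (-3.68 ± 0.26). The receptor Itga8 had 5.17 and 5.78 in AST, against 9.09 and 10.03 in NSC (-4.09 ± 0.35), and the integrin-like Itgbl1 had 4.02 and 4.03 in AST, against 8.11 and 7.89 in NSC (-3.97 ± 0.23). The risers were Lama5, Itga3 and Itgb8, so the family did not move one way. Without AST 2, 6 of its members fell.

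Smooth muscle genes split. Of 12 tested, 5 fell and 1, the myosin kinase Mylk, rose (median -0.38). Without AST 2 only 2 fell, and the rise was called only without NSC 2. Actg2, the enteric smooth muscle actin, had 4.98 and 4.42 in AST, against 11.02 and 10.95 in NSC (-6.28 ± 0.21), and Cnn1, the actin-binding calponin, had 5.81 and 5.35 in AST, against 9.68 and 10.30 in NSC (-4.41 ± 0.21). Those 2 genes keep their calls with any array left out. Tagln had 11.64 and 10.67 in AST, against 13.06 and 12.83 in NSC, and its adjusted p of 0.00751 became 0.0627 without AST 2. Tpm2 behaved likewise (0.0071 and 0.0572), and a second probe set of it had a difference of 0.20. The membrane-shaping proteins of caveolae gave 7 falls and 1 rise among 17 tested genes of their list (median -0.18), and 4 falls without AST 2 or without NSC 2. The rise, of Cav2, was not called without AST 1 or AST 2. Cavin2 had 5.25 and 5.46 in AST, against 10.41 and 11.73 in NSC (-5.72 ± 1.00), and Cavin1 had 8.42 and 8.41 in AST, against 9.85 and 9.11 in NSC (-1.07 ± 0.22). The annexin Anxa3 (-2.12 ± 0.36) and the calcium-binding S100a1 (-1.61 ± 0.23) fell. Of the intermediate filament list, 11 genes were tested and only Krt19 passed, at 5.40 and 5.71 in AST, against 6.35 and 6.47 in NSC, with an adjusted p of 0.0879 without AST 1.

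Counts for other tissues rest on few tested genes each and are to be read beside the 30.5% of all tested genes that passed. Of 6 tested cartilage and bone genes 2 fell. Col2a1, the cartilage collagen, had 5.34 and 5.57 in AST, against 6.64 and 8.25 in NSC, and Comp, a cartilage matrix protein, was at most 5.39 on the 4 arrays, with an adjusted p of 0.0709 without AST 1. Of 5 tested adipocyte genes the nuclear receptor Pparg rose, at 5.79 and 5.22 in AST, against 3.83 and 3.93 in NSC, and Cebpa fell (-1.17 ± 0.28, adjusted p = 0.0823 without AST 1). Of 4 tested endothelial genes 2 fell, Flt1 (-1.88 ± 0.44) and Egfl7 (-0.37 ± 0.12), neither with a call without AST 2. Of 6 tested epithelial genes 2 fell, Krt19 and Epcam, and Epcam (-0.39 ± 0.13) lost its call whichever array was left out (adjusted p between 0.0552 and 0.215). Of 3 tested microglial genes 0 passed, the smallest p being that of Csf1r (-0.26 ± 0.12, adjusted p = 0.14).

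**Figure D3:**
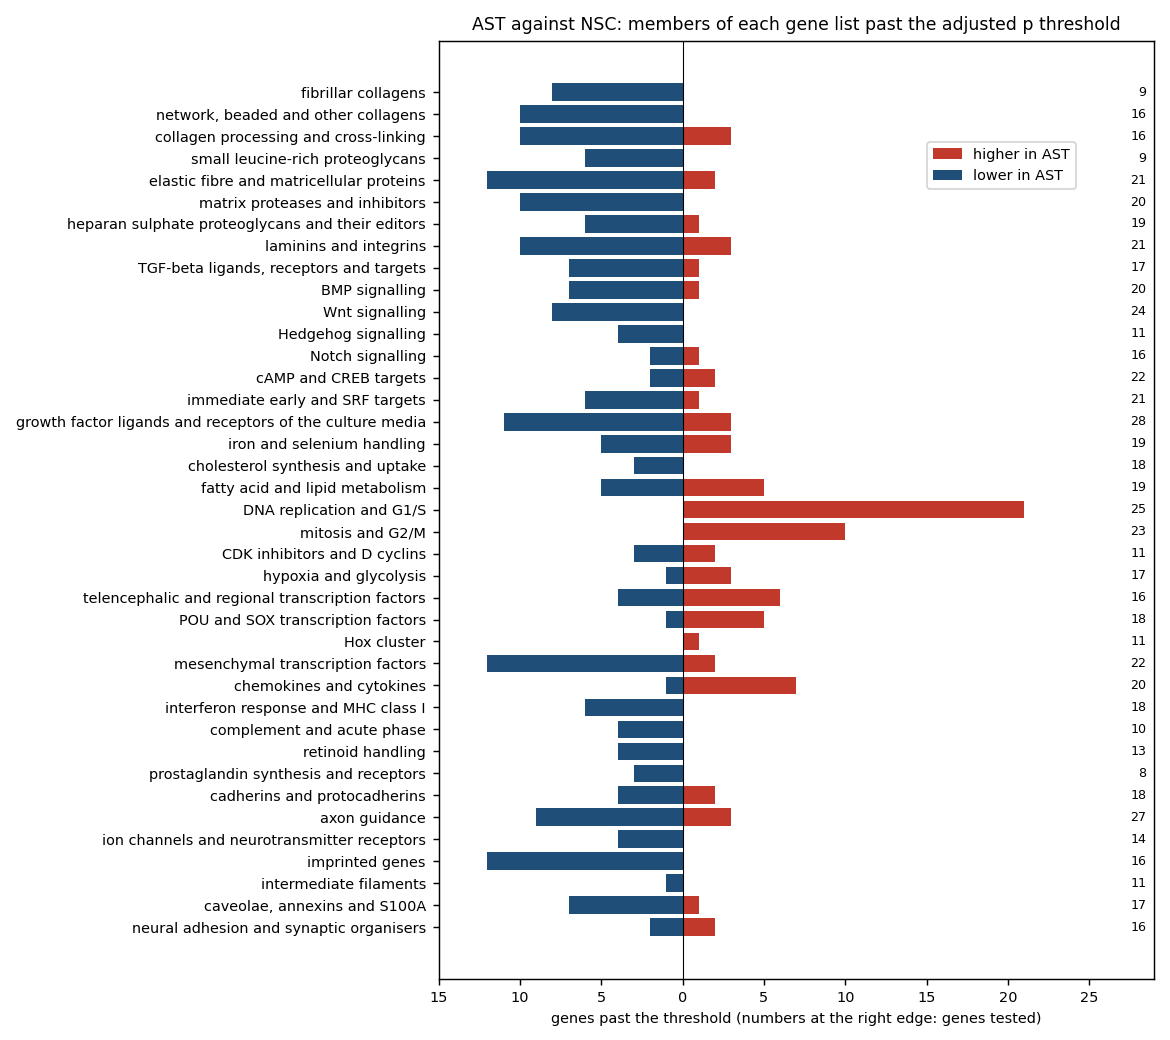
Number of genes in each of 39 gene lists that passed the adjusted p threshold, higher in AST (red, to the right) and lower in AST (blue, to the left); the number tested stands at the right edge. DNA replication holds the most rises, 21 of 25, and the lists of collagens, elastic fibres, mesenchymal factors and imprinted genes hold falls of up to 12 genes. Among all tested genes 15.4% rose and 15% fell.

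Genes that copy DNA were higher in AST. Of 25 genes of DNA replication and the entry into S phase, 21 rose and 0 fell, against 15.4% of all tested genes that rose, and the median difference was 1.03. The rises ranged from that of Pcna at 0.47 to that of Tyms at 1.43. Rfc3, of the clamp loader, had 9.79 and 9.90 in AST, against 8.74 and 8.76 in NSC (1.10 ± 0.12; adjusted p = 0.000281). Mcm7, of the replicative helicase, had 12.24 and 12.34 in AST, against 11.25 and 11.35 in NSC (0.99 ± 0.12). Cdt1, which loads that helicase, had 11.64 and 11.84 in AST, against 10.48 and 10.64 in NSC (1.18 ± 0.14), and Prim1, a primase, had 11.10 and 11.16 in AST, against 10.05 and 10.11 in NSC (1.05 ± 0.15). In these 4 genes, named for the smallest p in the list, the arrays of a group lie within 0.3 of each other. The 2 groups are about 1 log2 unit apart in them. Mcm6, Gins1, Rrm1 and E2f1 did not pass. With an array left out, 15 to 18 genes of the list rose.

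Mitotic genes that passed were also higher in AST. Of 23 tested, 10 rose and 0 fell (median 0.62), but only 2 rose without AST 1, 6 without AST 2 and 5 without NSC 2. Foxm1, a transcription factor of the mitotic program, had 8.55 and 8.51 in AST, against 7.25 and 7.09 in NSC (1.36 ± 0.19). Ccna2, cyclin A, had 11.69 and 11.49 in AST, against 10.65 on each NSC array (0.93 ± 0.19). The spindle motor Kif11 rose by 1.05 ± 0.22 and Birc5, which encodes survivin, by 1.00 ± 0.23. Without AST 1 the adjusted p was 0.0527 for Kif11 and 0.0566 for Birc5. Mki67, the proliferation antigen, had 10.69 and 10.44 in AST, against 9.90 and 9.84 in NSC, and did not pass (adjusted p = 0.0556).

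**Figure D4:**
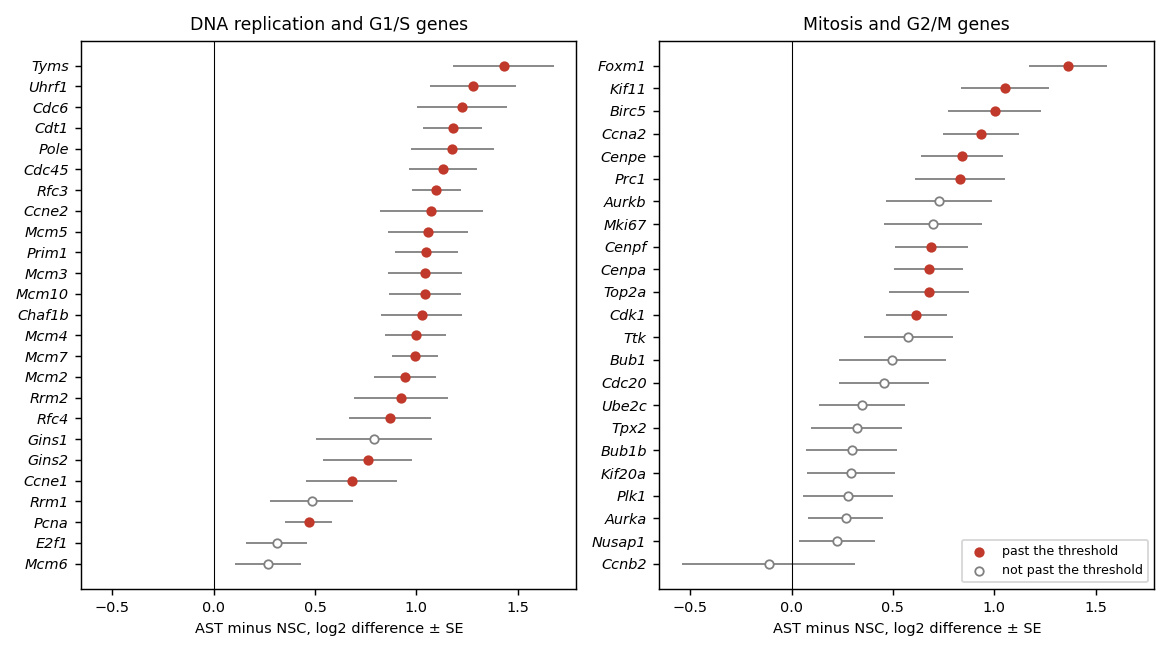
Log2 difference, AST minus NSC, with its SE, for the tested genes of DNA replication (left) and mitosis (right), ordered by size; filled points passed the adjusted p threshold and open points did not. The replication genes that passed lie between 0.47 and 1.43, and 1 mitotic gene, Ccnb2, lies below 0.

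E2F factors switch on genes of S phase by binding short GC-rich letters near their starts. The letters TTTCCCGC, TTTCGCGC, TTTGCCGC and TTTGGCGC, on either strand, were looked for in RefSeq promoter windows of build GRCm38.p6 that run from 250 bases before to 50 bases after a gene's start. Matches on the 2 strands may overlap. Of the 25 replication genes, 20 had a window and 8 held a match (Mcm3, Mcm5, Mcm6, Mcm7, Cdc6, Cdt1, Rfc3 and Uhrf1), which is 40%, against 4.62% of the 10294 tested genes with a window and 2.26% of all 32851 windows. Of 19 mitotic genes with a window, 1 held a match. Mcm6 holds matches and did not pass, and 12 replication genes have none in their windows. The list was picked by function, so its share of matches does not bear on AST against NSC. Whether E2F factors take part in the rise was not tested. For Mcm5, Mcm6, Mcm7, Cdc6, Rfc3 and Uhrf1, the 200 bases before the start are shown because a match lies in them; they run 5′ to 3′ on the gene's strand, with the matched letters in capitals. The stretches are chr8:75109309-75109508 (plus strand) for Mcm5, chr1:128359706-128359905 (minus strand) for Mcm6, chr5:138171884-138172083 (minus strand) for Mcm7, chr11:98907951-98908150 (plus strand) for Cdc6, chr5:151651209-151651408 (minus strand) for Rfc3 and chr17:56304113-56304312 (plus strand) for Uhrf1.
Mcm5: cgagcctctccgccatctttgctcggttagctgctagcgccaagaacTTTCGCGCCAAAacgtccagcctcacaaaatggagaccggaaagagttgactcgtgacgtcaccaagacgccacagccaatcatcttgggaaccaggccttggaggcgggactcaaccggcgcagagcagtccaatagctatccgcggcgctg
Mcm6: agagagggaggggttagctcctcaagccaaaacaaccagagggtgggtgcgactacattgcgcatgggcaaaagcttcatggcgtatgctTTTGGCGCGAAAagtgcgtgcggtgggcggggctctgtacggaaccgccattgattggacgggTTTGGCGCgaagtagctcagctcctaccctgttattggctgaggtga
Mcm7: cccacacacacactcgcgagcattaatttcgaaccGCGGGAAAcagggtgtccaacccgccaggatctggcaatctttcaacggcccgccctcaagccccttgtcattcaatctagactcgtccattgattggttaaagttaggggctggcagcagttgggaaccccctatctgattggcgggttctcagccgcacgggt
Cdc6: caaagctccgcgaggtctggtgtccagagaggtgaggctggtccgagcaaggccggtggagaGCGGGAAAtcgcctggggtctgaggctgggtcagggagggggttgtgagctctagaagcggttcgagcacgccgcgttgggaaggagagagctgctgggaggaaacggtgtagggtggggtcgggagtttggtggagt
Rfc3: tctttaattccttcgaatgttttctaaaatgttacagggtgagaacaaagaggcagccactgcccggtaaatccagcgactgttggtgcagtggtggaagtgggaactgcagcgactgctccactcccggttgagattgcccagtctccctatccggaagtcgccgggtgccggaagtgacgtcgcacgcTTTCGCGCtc
Uhrf1: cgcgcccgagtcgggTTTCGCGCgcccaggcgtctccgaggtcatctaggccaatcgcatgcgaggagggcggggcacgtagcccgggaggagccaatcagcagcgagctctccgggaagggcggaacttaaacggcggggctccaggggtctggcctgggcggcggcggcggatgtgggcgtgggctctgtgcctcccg

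Among inhibitors of the cell cycle, 3 of the 11 tested genes of their list fell and 2, Cdkn2c and the cyclin Ccnd1, rose (median -0.14). Cdkn1c, the imprinted inhibitor p57, had 5.28 and 5.37 in AST, against 8.53 and 7.43 in NSC (-2.66 ± 0.32). Cdkn2b had 9.15 and 9.31 in AST, against 10.52 and 10.48 in NSC (-1.27 ± 0.18), and Cdkn2a averaged 9.14 in AST, against 10.24 in NSC (-1.09 ± 0.24, adjusted p = 0.0604 without AST 1). The last 2 stayed high in both cell types. Cdkn2c rose by 0.35 ± 0.11, and its adjusted p was 0.193 without NSC 2. The rise of Ccnd1 was not called without AST 1 or AST 2, since 0 genes of the list rose there.

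Imprinted genes, which are read from a single parental copy and often govern embryonic growth, were lower in AST. Of 16 tested, 12 fell and 0 rose, against 15% of all tested genes that fell, with a median of -1.41. Grb10, an adaptor that restrains insulin and IGF signalling, had 8.98 and 8.04 in AST, against 12.10 and 11.94 in NSC (-3.51 ± 0.24). Nnat, neuronatin, had 4.75 and 4.74 in AST, against 9.18 and 7.27 in NSC (-3.48 ± 0.51), and Peg3, a zinc finger factor, had 4.34 and 4.99 in AST, against 8.85 and 7.41 in NSC (-3.47 ± 0.40). The other falls were those of Igf2, Meg3, Mest, Ndn, Plagl1, Cdkn1c, Sgce, Igf2r and Gnas, which are expressed from maternal copies in some cases and paternal copies in others. Without AST 2, 6 of these genes fell, and without NSC 1, 7. Dlk1, Impact, Snrpn and Phlda2 did not pass. In the same arrays the fibroblast and pericyte list fell, as given above, and its part in this result was not tested.

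The list of receptors and ligands for the factors in the media had 28 tested genes, of which 11 fell and 3 rose (median -0.61). The binding proteins that hold IGF outside the cell moved both ways. Igfbp5 had 3.50 and 3.46 in AST, against 8.82 and 7.88 in NSC (-4.87 ± 0.53), Igfbp6 had 5.48 and 5.35 in AST, against 10.34 and 9.70 in NSC (-4.60 ± 0.25), and Igfbp4 had 9.32 and 8.80 in AST, against 10.89 and 11.11 in NSC (-1.93 ± 0.20). Igfbp3 had 8.02 and 8.28 in AST, against 4.77 and 4.52 in NSC (3.50 ± 0.28). For each of these 4 genes, named for the smallest p in the list, the arrays of a group agree far better than the groups do. Of the PDGF receptors, Pdgfra had 8.26 and 6.75 in AST, against 10.52 and 10.77 in NSC (-3.14 ± 0.44), and Pdgfrb had 10.28 and 10.34 in AST, against 11.43 and 11.21 in NSC (-1.01 ± 0.21). The ligands Pdgfb and Fgf13 rose, and the further falls were Pdgfd, Fgfr2, Fgf7, Fgf18, Igf1r and Igf2.

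In the TGF-beta list 17 genes were tested, 7 fell and the receptor Tgfbr1 rose (median -0.36), the rise being called only without NSC 1 when an array was left out. The ligand Tgfb3 had 7.75 and 7.47 in AST, against 9.58 and 9.17 in NSC (-1.77 ± 0.24), and the activin subunit Inhbb had 3.89 and 3.91 in AST, against 6.95 and 7.01 in NSC (-3.08 ± 0.14). The co-receptor Tgfbr3 fell by 1.25 ± 0.20, and the target Ccn2, a matricellular growth factor, fell by 1.76 ± 0.25 but had 11.04 and 10.96 in AST. The BMP list had 20 tested genes, of which 7 fell and 1, the inhibitor Id4, rose (median -0.07), with 4 falls without AST 2 or NSC 1 and no rise without AST 2, NSC 1 or NSC 2. The ligand Bmp4 had 7.93 and 8.13 in AST, against 9.64 and 9.61 in NSC (-1.60 ± 0.18), and its target genes Msx1 (-2.99 ± 0.53) and Msx2 (-1.53 ± 0.29) and the decoy receptor Bambi (-0.59 ± 0.12) fell. The BMP targets Id1, Id2 and Id3 did not pass.

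Of 24 tested Wnt genes 8 fell and 0 rose (median -0.36), and without AST 2 there were 5 falls. Secreted Wnt modulators were prominent: Sfrp2 had 3.28 and 3.36 in AST, against 7.23 and 8.18 in NSC (-4.39 ± 0.27), Dkk3 had 5.49 and 5.45 in AST, against 9.35 and 9.64 in NSC (-4.02 ± 0.14), and Frzb had 3.95 and 3.85 in AST, against 6.99 and 5.88 in NSC (-2.53 ± 0.31). The receptor Ror2 fell by 1.16 ± 0.17. No Wnt ligand passed. Of 11 tested Hedgehog genes 4 fell and 0 rose (median -0.04), and 2 fell without AST 1, AST 2 or NSC 2. Gli2, the main activator of the pathway, had 6.29 and 5.39 in AST, against 9.04 and 8.74 in NSC (-3.05 ± 0.28). The falls of the co-receptors Gas1 (-0.81 ± 0.19) and Cdon (-1.07 ± 0.32) and of the antagonist Hhip (-0.63 ± 0.17) lost their calls with an array left out, at adjusted p of 0.0666 for Gas1 without NSC 1, and of 0.18 for Cdon and 0.114 for Hhip without NSC 2. Of 16 tested Notch genes 2 fell and 1 rose (median -0.04). Dner, a Notch ligand of neurons and glia, had 4.80 and 4.86 in AST, against 8.44 and 7.38 in NSC (-3.08 ± 0.36), while the effector Rbpj and the modulator Lfng lost their calls without NSC 2 (adjusted p = 0.226 and 0.151).

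Forskolin raises cAMP and was present in the NSC medium. Of 22 tested cAMP and CREB target genes 2 rose and 2 fell (median -0.12), not above the 15.4% and 15% of all tested genes. The coactivator Ppargc1a had 4.62 and 5.15 in AST, against 3.61 and 3.48 in NSC (adjusted p = 0.0723 without AST 2). The phosphodiesterase Pde4b rose by 0.91 ± 0.24 and Pde4d fell by 1.02 ± 0.33, with adjusted p of 0.122 and 0.0595 without AST 1. Cdkn1c, given above, was the list's other fall. Immediate early and SRF target genes, which respond within minutes to serum or growth factors, had 21 tested members, of which 6 fell and 1, Fosl1, rose (median -0.19). Fos had 6.69 and 7.52 in AST, against 10.71 and 9.57 in NSC (-3.03 ± 0.64), and Egr2 had 7.56 and 6.22 in AST, against 9.75 and 8.87 in NSC (-2.42 ± 0.58). Tgfb1i1, a focal adhesion protein, fell by 1.48 ± 0.33. Egr1, Egr3 and Ccn2 were the other falls. Only 2 genes of this list fell without AST 2 and 3 without NSC 1 or AST 1, and without AST 1 the adjusted p of Fos was 0.054. Egr2 and Tgfb1i1 had adjusted p of 0.102 and 0.075 without AST 2, and Fosl1 passed only without NSC 1 when an array was left out.

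Of 20 tested genes of chemokines and cytokines, against 15.4% of all tested genes that rose, 7 rose (Ccl2, Ccl9, Ccl20, Cxcl2, Cxcl5, Cxcl10 and Cx3cl1) and 1, Tslp, fell, with a median of 0.67. The fall was called only without NSC 1 when an array was left out. Cxcl5, which attracts neutrophils, had 6.12 and 5.63 in AST, against 3.33 and 3.03 in NSC (2.70 ± 0.25). Cxcl10, which attracts T cells, had 8.90 and 8.42 in AST, against 6.18 and 5.02 in NSC (3.06 ± 0.56), and Ccl20 had 7.39 and 7.21 in AST, against 5.40 and 5.57 in NSC (1.81 ± 0.24). The membrane-bound Cx3cl1 had 9.69 and 9.20 in AST, against 8.83 and 8.09 in NSC, with an adjusted p of 0.115 without AST 1. Without that array 3 genes of the list rose. Of 18 tested interferon response genes 6 fell, 0 rose and 12 did not pass (median -0.63), against 15% of all tested genes that fell, and 10 fell without NSC 2. Irf9, a subunit of the interferon-activated complex, had 5.31 and 5.45 in AST, against 7.50 and 7.09 in NSC (-1.92 ± 0.18), and its partner Stat2 had 4.61 and 4.76 in AST, against 5.76 and 5.67 in NSC (-1.03 ± 0.14). Ifit3 fell by 1.15 ± 0.16, and B2m, the light chain of MHC class I, fell by 0.71 ± 0.13 and was above 12 on all 4 arrays. Of 10 tested complement genes 4 fell (C1qtnf6, Pros1, C1ra and Serping1) and 0 rose (median -0.50). Without AST 2 there were 2 falls, and C1ra and Serping1 had adjusted p of 0.0739 and 0.0601. Pros1, protein S, had 5.58 and 5.84 in AST, against 7.42 and 6.96 in NSC.

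Iron and selenium genes moved both ways, with 3 rises and 5 falls among 19 tested (median -0.16). Tfrc, the transferrin receptor, had 12.24 and 12.12 in AST, against 10.36 and 9.88 in NSC (2.06 ± 0.19). Slc11a2, an iron importer, and Txnrd1, a thioredoxin reductase, were the other rises, and 1 gene of the list rose without AST 1. Gpx7, a peroxidase of the endoplasmic reticulum, had 5.49 and 5.12 in AST, against 10.26 and 9.80 in NSC (-4.72 ± 0.24). The selenium carrier Selenop had 5.90 and 4.52 in AST, against 8.72 and 8.96 in NSC (-3.63 ± 0.47), and Selenom had 6.27 and 5.84 in AST, against 9.31 and 9.38 in NSC (-3.29 ± 0.20). Slc40a1, the iron exporter, and Steap3 fell too. RNA of the uptake receptor was thus higher on the AST arrays, and RNA of the exporter lower.

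Of 18 tested cholesterol genes 3 fell and 0 rose (median -0.52). The exporter Abca1 had 5.64 and 4.72 in AST, against 8.94 and 7.26 in NSC (-2.92 ± 0.69), and its adjusted p was 0.0878 without AST 2. The synthesis enzymes Dhcr7 (-0.92 ± 0.25) and Fdft1 also fell, with adjusted p of 0.137 and 0.207 without NSC 2, when 1 gene of the list fell, as without AST 1. Without NSC 1 there were 5 falls. In fatty acid and lipid metabolism 19 genes were tested, 5 rose and 5 fell (median -0.32). The rises were Cyp7b1, Ces1g and Plscr2, given above, with Plin2 and Ephx1. Lpcat3, which remodels phospholipids, had 8.54 and 8.77 in AST, against 9.71 and 9.74 in NSC (-1.07 ± 0.14), and the desaturases Scd1, Scd2 and Fads1 and the regulator Srebf1 fell with it. Of 17 tested hypoxia and glycolysis genes 3 rose and 1 fell (median 0.34), with 1 rise without AST 1 or AST 2. Pkm (0.47 ± 0.10), the glucose transporter Slc2a1 (0.71 ± 0.18) and Ldha (0.51 ± 0.15) rose by small amounts. Without AST 1 the adjusted p was 0.052 for Pkm and 0.163 for Ldha, and without AST 2 it was 0.0967 for Slc2a1. Adm, the vasodilator peptide adrenomedullin, had 4.99 and 5.21 in AST, against 10.80 and 10.67 in NSC (-5.64 ± 0.14).

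In retinoid handling 13 genes were tested, 4 fell and 0 rose (median -0.79). The receptor Rarg had 7.83 and 7.66 in AST, against 8.52 and 8.73 in NSC (-0.88 ± 0.13). The carrier Crabp1 had 5.73 and 6.33 in AST, against 7.89 and 11.66 in NSC, and with an adjusted p of 0.0757 without NSC 2 its call was lost without that array, as it was without AST 1 or AST 2. Cyp26b1, which degrades retinoic acid, fell by 0.90 ± 0.22 (adjusted p = 0.0734 without NSC 1). With AST 1 or AST 2 left out, 2 genes of this list fell. Of 8 tested prostaglandin genes 3 fell and 0 rose (median -0.56). Ptgis, prostacyclin synthase, had 5.79 and 5.33 in AST, against 10.67 and 10.37 in NSC (-4.96 ± 0.21), the receptor Ptgfr fell by 2.82 ± 0.21, and Ptges fell by 1.61 ± 0.33 (adjusted p = 0.052 without AST 2). The sphingosine receptor S1pr3 had 5.33 and 3.71 in AST, against 10.69 and 9.64 in NSC (-5.65 ± 0.48).

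Of 18 tested cadherins and protocadherins 4 fell and 2 rose (median -0.02), with 2 falls without AST 1. Cdh11, the cadherin of mesenchyme, had 9.87 and 8.92 in AST, against 12.37 and 11.93 in NSC (-2.75 ± 0.52). Cdh13, a cadherin without a cytoplasmic tail, had 7.56 and 7.98 in AST, against 5.78 and 6.30 in NSC (1.72 ± 0.19). Pcdh9 fell by 1.75 ± 0.24, and the rise of Pcdh18 by 0.85 ± 0.20 had an adjusted p of 0.0842 without AST 1. Axon guidance genes had 27 tested members, of which 9 fell and 3 rose (median -0.16), and without AST 1 or AST 2 there were 5 falls and 1 rise. Without NSC 1 there were 6 falls. The netrin receptor Unc5c had 5.86 and 5.82 in AST, against 8.47 and 7.75 in NSC (-2.27 ± 0.21), while the ligand Ntn1 was among the rises. The semaphorin receptor Plxnc1 had 3.30 and 3.57 in AST, against 5.79 and 7.22 in NSC (-3.07 ± 0.37), and the co-receptor Nrp2 had 9.01 and 9.57 in AST, against 7.71 and 7.98 in NSC (1.45 ± 0.25). The repellent Slit3 fell by 1.40 ± 0.24. Of 14 tested ion channels and neurotransmitter receptors 4 fell and 0 rose (median -0.15), with 2 falls without AST 2. Gabrb1, a GABA receptor subunit, had 4.43 and 4.22 in AST, against 5.65 and 5.81 in NSC (-1.41 ± 0.12). The calcium channel genes Cacna1c (-1.42 ± 0.18), Cacna1g (-0.80 ± 0.18) and Cacna2d1 (-1.16 ± 0.28) were the others, and Cacna1g and Cacna2d1 lost their calls without AST 2.

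Genes outside the lists were also among the 15 largest falls. Gask1b, of the Golgi kinase family, had 4.14 and 3.76 in AST, against 9.99 and 9.74 in NSC (-5.91 ± 0.22). The ribosomal protein gene Rps4l had 4.13 and 4.31 in AST, against 9.99 and 9.64 in NSC (-5.59 ± 0.15), and Abi3bp, a matrix protein, had 2.59 and 2.62 in AST, against 7.05 and 8.96 in NSC (-5.40 ± 0.46). All 3 were below the median of all values on both AST arrays and above it on both NSC arrays.

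The 2 NSC arrays differed from each other more than the 2 AST arrays did. The SD over genes of the difference between the arrays of a group was 0.25 for AST and 0.41 for NSC, and 2 genes in AST and 62 in NSC were over 2 log2 units apart. In AST the largest gap was that of the secreted protein Cthrc1, with 8.54 and 6.06 on the AST arrays, against 12.58 and 12.24 in NSC (-5.11 ± 0.63). Tgfbi and Dcn were likewise higher on AST 1 than on AST 2, and Bex1 lower. Tgfbi, a matrix protein induced by TGF-beta, had 8.61 and 6.40 in AST, against 10.70 and 10.59 in NSC. Cthrc1, Tgfbi and Dcn, all higher on AST 1, were lower in AST than in NSC.

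Within NSC the largest gap was that of the protease inhibitor Serpinb2, with 9.11 and 2.82 on the NSC arrays, while AST had 3.50 and 2.92. Igfbp2 had 8.09 and 6.39 in AST, against 12.51 and 8.02 in NSC, and Nrn1, a surface protein that promotes neurite growth, had 9.74 and 9.19 in AST, against 4.04 and 9.14 in NSC. Coch, a secreted matrix protein, had 3.55 and 3.83 in AST, against 8.27 and 4.14 in NSC. None of these 4 genes passed the test of AST against NSC (limma adjusted p between 0.0931 and 0.372), and their differences depended on the NSC array kept. Without NSC 1 the differences were 0.39 for Serpinb2, 0.33 for Nrn1, -0.78 for Igfbp2 and -0.45 for Coch. Without NSC 2 they were -5.9, 5.42, -5.27 and -4.58. A control probe set for the 5′ end of 18S ribosomal RNA read 8.42 and 9.06 in AST, against 7.91 and 12.13 in NSC, and it also differed between the arrays of NSCL61 (8.06 and 11.67) and of OPC (8.71 and 12.59).

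The same contrast was measured on arrays that share no sample with the parents, ASTL61 against NSCL61. There 4182 genes (32.7%) passed, 2065 (16.1%) higher and 2117 (16.6%) lower in ASTL61. Of the 1975 genes higher in AST than in NSC, 579 were also higher in ASTL61 than in NSCL61, which is 29.3% of the parents' list and 28.0% of the lines', and 182 were lower there. Of the 1921 genes lower in AST, 561 were also lower in ASTL61 (29.2% of the parents' list and 26.5% of the lines'), and 340 were higher there. The difference between the contrasts was itself tested, and 3236 genes (25.3%) passed: 1652 (12.9%) with a more positive and 1584 (12.4%) with a more negative difference in the parents.

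Genes that moved the same way in both contrasts included Cyp7b1, at 9.87 on average in ASTL61, against 3.17 in NSCL61, and Cd34, at 11.45 in ASTL61, against 5.39 in NSCL61. For neither did the size differ between parents and lines by the test, though both differences were larger in the lines. They were 6.71 against 5.11 in the parents for Cyp7b1, and 6.06 against 4.01 for Cd34. Igfbp5, at 3.55 in ASTL61, against 8.39 in NSCL61, and Peg3, at 4.66 in ASTL61, against 9.82 in NSCL61, were lower in both contrasts. Sp8, at 6.28 in ASTL61, against 3.53 in NSCL61, was higher in both.

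Other genes differed between the contrasts. Pou3f3 had 8.94 in ASTL61, against 9.74 in NSCL61, and Sox2 had 10.35 in ASTL61, against 11.75 in NSCL61, so that the line NSCL61 carries the signals that are low on the NSC arrays. Thy1 was low in both lines, at 4.68 in ASTL61, against 4.08 in NSCL61, and Aspn too, at 3.19 in ASTL61, against 3.04 in NSCL61. Of the 15 tested fibroblast and pericyte genes 10 were higher and 1 lower in ASTL61 than in NSCL61, and 13 passed the test of the difference between the contrasts. Col1a1 had 11.61 in ASTL61, against 4.31 in NSCL61, and Pdgfrb had 10.35 in ASTL61, against 4.17 in NSCL61. The mean signal of the fibroblast and pericyte list was 7.79 and 8.28 on the ASTL61 arrays, against 5.79 and 5.68 on the NSCL61 arrays, so its order is the reverse of that in the parents. Of the 25 replication genes 5 were higher in ASTL61 and 1 lower, and 12 passed the test of the difference. Of the 16 imprinted genes 7 were lower in ASTL61 and 1 higher, and 6 passed that test.

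**Figure D5:**
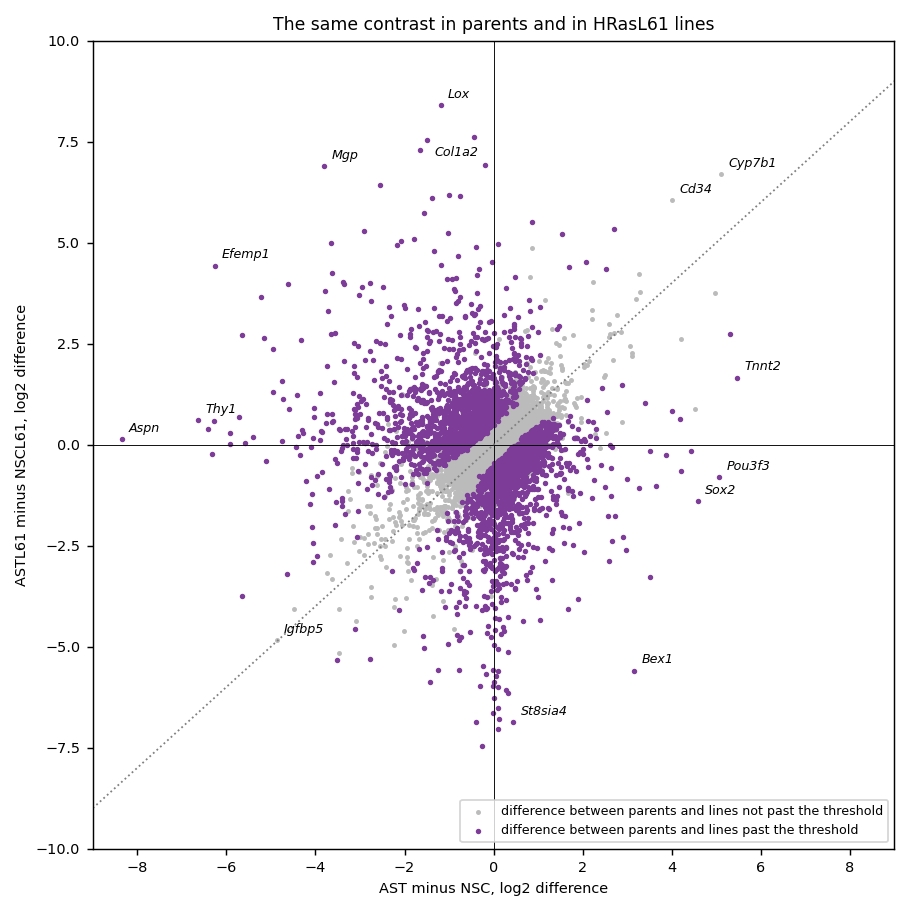
Log2 difference of ASTL61 minus NSCL61 (vertical axis) against that of AST minus NSC (horizontal axis) for the 12788 tested genes; purple points passed the test of the difference between the 2 contrasts and the dotted line marks equal differences. Aspn and Thy1 lie far to the left near 0 on the vertical axis, and Mgp, Efemp1, Lox and Col1a2 lie at the upper left. Igfbp5 lies near the line of equality, and Cyp7b1 and Cd34 lie above it.

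The line ASTL61 stayed close to AST over the whole array. The median absolute difference between group means over the tested genes was 0.13 between ASTL61 and AST, with 24 genes over 2 log2 units apart, whereas it was 0.33 between NSCL61 and NSC, with 789 such genes. Between AST and NSC it was 0.29, with 401 such genes, and between OPC and NSC it was 0.45, with 1408.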

How the data were processed

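RNA was hybridised to 12 Affymetrix mouse arrays (6 groups of 2), from 5 µg of input RNA following the labels' protocols. The values, as deposited, are log2 signals, 1 per probe set. How they were normalised is not given in the sources used here, and the medians of the arrays range between 5.16 and 5.21. Of 45101 probe sets, 34958 had 1 gene symbol in the platform annotation, 932 several and 9147 none, and 64 controls were left out. Groups follow the sample titles. Genes with a group mean above 5.18 in at least 1 group were fitted with limma 3.58.1 (R 4.3.3): 6 group means over 12 arrays, empirical Bayes moderation and Benjamini-Hochberg adjustment over all 12788 genes, with a threshold of 0.05. The fit was tested on simulated data, in which few genes differed and each gene had the same spread in all groups. The arrays here lack these properties, so that test does not vouch for the calls. The number of arrays limits the precision. Named genes are the 15 largest rises and falls past the threshold, the markers of the labelled and other cell types, up to 4 genes of each list with the smallest p, the 5 largest gaps between arrays within AST and within NSC, and the 5 largest differences between parents and lines in each direction; other genes are named from lists to account for a count. The 15 largest rises and falls were taken among genes whose AST and NSC arrays do not overlap, leaving out provisional symbols. The members and lists were chosen with earlier results of these data known. Arrays with the same replicate number shared little over the tested genes (correlation of deviations 0.11 for AST and NSC, -0.20 to 0.11 over all pairs of groups). The control for the 5′ end of 18S RNA was higher on replicate 2 in NSC, NSCL61, OPC and AST. It was lower on replicate 2 in OPCL61 and ASTL61, and whether arrays shared a batch was not tested. Alternatives were quantile normalisation, median centring, other filters, averaged probe sets, a replicate block, other priors, array weights, only the arrays compared, and each array left out. Tables and figures used Python 3.11.15 with pandas 2.3.3, NumPy 2.4.6 and matplotlib 3.10.9. Hras and Trp53 were not analysed here, and 1 gene named by the rule for gaps within AST is not reported here.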

Additional observations from a re-analysis of the deposited data

Results flagged for a closer look

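The difference of AST minus NSC itself differed from that of ASTL61 minus NSCL61 for 3236 genes (limma adjusted p), and the 5 largest such differences in each direction are given here. Those with the more positive difference in the parents were high in NSCL61. Bex1, by 8.76 (adjusted p = 0.00134), had 7.64 and 9.50 in AST, against 7.16 and 3.66 in NSC, and 8.02 and 7.62 in ASTL61, against 13.38 and 13.45 in NSCL61. St8sia4, a polysialyltransferase, differed by 7.31, and Il5ra, a cytokine receptor chain, by 7.20. Pcdh8, a protocadherin, differed by 7.15, and Nrcam, a neural adhesion molecule, by 6.91. Apart from Bex1 these genes were below 4.1 on every AST and NSC array and above 10 on both NSCL61 arrays.

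Those with the more negative difference in the parents were matrix genes that were low in NSCL61. Mgp, matrix Gla protein, differed by -10.71, with 9.09 and 8.84 in AST, against 13.26 and 12.29 in NSC, and 10.21 and 12.07 in ASTL61, against 4.44 and 4.04 in NSCL61. Efemp1 differed by -10.70, Lox, a lysyl oxidase, by -9.58, Col1a2 by -9.05 and Col5a2 by -8.98. All 5 were lower in AST than in NSC and higher in ASTL61 than in NSCL61 on every array.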

How the results depend on the processing

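No call of AST against NSC turned to the opposite direction under any alternative run. The count of 3896 genes lay between 3223 (only the 4 arrays compared) and 4032 (array weights) under the alternatives that kept all 4 arrays, and was 3238 with a stricter filter on low signal (75th percentile). Leaving out 1 array gave 2117 to 3021 genes (2366 without AST 1 and 2117 without AST 2). Requiring an absolute log2 difference of at least 1 left 1327. For ASTL61 against NSCL61 the count of 4182 became 2422 to 3392 with an array left out, and for the difference between the contrasts the count of 3236 became 2012 to 2985. The replicate numbers do not pair the arrays by the labels, and the fit with a replicate block called 3816 genes, 3693 of them in common with the fit without it. Fewer arrays leave less information per group, which lowers such counts by construction. With 1 array of a group left, the gap within that group no longer enters the spread, so single genes can also gain a call. Of 226 results for single genes, 30 lost their call without AST 1, 35 without AST 2, 19 without NSC 1 and 23 without NSC 2. The 226 results include differences between the contrasts and genes that had no call to lose, whereas 195 named genes passed in AST against NSC. Signals under the median of all values limit what low genes can show.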

Other observations

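Xist, the noncoding RNA of the inactive X chromosome, was looked at after its values were seen. It had 8.34 and 8.39 in AST, against 10.30 and 9.85 in NSC (log2 difference -1.71 ± 0.23, SE; limma adjusted p = 0.000714). Other Xist probe sets gave differences of -2.28 and -1.48. Of 411 tested X-linked genes 51 were higher and 71 lower in AST, with a median difference of -0.03. Of 12323 tested autosomal genes 1918 were higher and 1847 lower, with a median of 0.02. Probe sets of the Y-linked gene Eif2s3y read at most 2.98 on the AST and NSC arrays. A probe set of Sry, also Y-linked, read 5.57 to 5.83 there. Whether the cultures differ in the sex of their cells was not tested.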
